A study of Zea mays with 18 samples.

Results

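The genes described here are 6 maize male-sterility genes that encode enzymes of tapetal lipid and exine synthesis, out of 45578 genes in the deposited tables. The list names them by identifier and sets no threshold on their values, although it was drawn up with earlier results of these data known: ms26 (Zm00001d027837), ms45 (listed as Zm00001d047859), ms30 (Zm00001d052403), ms33 (Zm00001d007714), ms20/ipe1 (Zm00001d029683) and ms6021 (Zm00001d048337). Their RNA was measured in anthers of plants carrying a ZmCCT10 transgene, ZmCCT(+), and of control plants, ZmCCT(-). ZmCCT10 is a CCT-domain protein that represses flowering under long days. Anthers were collected at the stages named S3-4, S5-6 and S7, and each stage and genotype has 3 libraries, 18 in all. The sources used here do not give the promoter of the transgene, the number of transformation events or any pooling of plants. ZmCCT10 itself was not analysed here by name, so the genotype labels were not checked against its level.

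The tapetum is the innermost layer of the anther wall and feeds the developing microspores. Its cells make fatty acid and phenolic precursors that are exported and built into sporopollenin, the polymer of the outer pollen wall or exine, and into the cuticle of the anther surface. Loss of any of these enzymes is known to leave maize pollen with a defective wall and the plant male sterile. The precursors pass through fatty acyl reduction (ms6021), hydroxylation by a cytochrome P450 (ms26) and oxidation by a glucose-methanol-choline oxidoreductase (ms20/ipe1). Glycerol-3-phosphate acyltransferase (ms33) starts glycerolipid synthesis, and ms30 encodes a GDSL-type lipase. The protein of ms45 resembles strictosidine synthase.

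The identity of the gene listed as ms45 could not be settled from the sources used here. The deposited tables hold no gene names. In the RefSeq gene table of another assembly, Zm-B73-REFERENCE-NAM-5.0, the gene with the synonym Ms45 lies next to a second gene, known there as GRMZM2G307906, and neither is paired with an identifier of the deposited tables. In the deposited tables Zm00001d047859 likewise has a close neighbour, Zm00001d047858, which ends 302 bases before it on the same strand of chromosome 9. The name ms45 is therefore not used for the values below, and the neighbour, which was added after its values were seen, is described beside it.

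Total counts ran from 14846974 to 23652182 per library. CPM here means the count scaled by TMM to library size, and TPM, which is also per length, allows levels of different genes to be compared. The TMM factors of the S3-4 ZmCCT(+) libraries were 0.845 to 0.854, against 0.961 to 1.08 in the other libraries, so this group stands apart. Of 24694 genes that passed the filter on low counts, 81.3% differed between genotypes at S3-4, 63.1% at S5-6 and 54.5% at S7. The threshold throughout was an adjusted p of 0.05 by the quasi-likelihood test of edgeR. A call is therefore common, and the size of a change says more than its call. Nothing in the labels ties the libraries of a group to separate plants, so p-values reflect no more than how these libraries scatter, and that scatter may be technical. In whole anthers, fewer tapetal cells and less RNA per tapetal cell cannot be told apart. No tapetal marker beyond the listed genes could be looked up by name, so the tissue was not checked.

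Each of the 6 genes had a count in at least 1 library, but 3 of them were close to silent. Zm00001d047859 had 12824 counts over the 18 libraries, ms33 had 3928 and ms6021 had 215. The others, ms26 with 69, ms20/ipe1 with 42 and ms30 with 28, failed the filter. In each library Zm00001d047859 had a higher TPM than between 82.3% and 87.8% of all genes. ms6021 passed the filter only through S3-4 ZmCCT(+), where it is high, so the filter bears on each test of that group. Its tests against S3-4 ZmCCT(+) are therefore given without the filter, over 35122 genes, of which 59.6% were called between genotypes at S3-4. The genes did not share a profile: over the 18 libraries, which share the 6 groups, Pearson's r of log2 CPM was -0.28 between Zm00001d047859 and ms33, -0.06 between ms33 and ms6021, and -0.62 between Zm00001d047859 and ms6021.

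**Figure D1:**
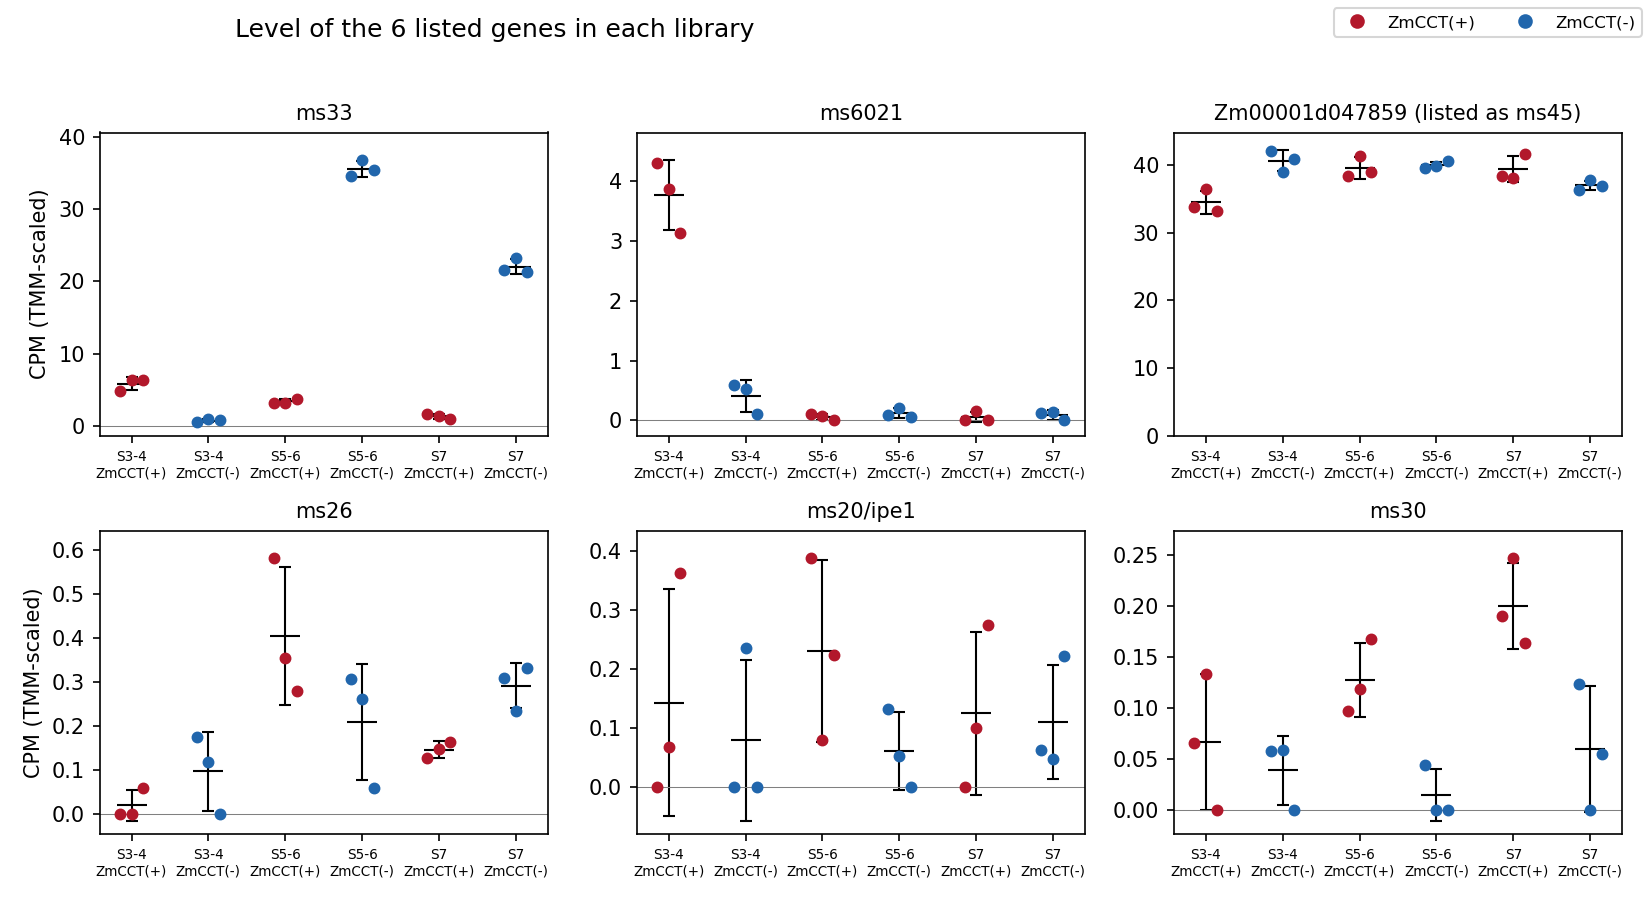
CPM of the 6 listed genes in each library (points), with the mean and SD of 3 libraries (black), by stage and genotype on a separate axis for each gene. ms33 is high in S5-6 and S7 ZmCCT(-), ms6021 is high in S3-4 ZmCCT(+), Zm00001d047859 stays between 33.3 and 42.0 CPM, and the lower 3 genes never exceed 0.581 CPM. SD bars that reach below 0 belong to groups with libraries at or near 0.

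The acyltransferase gene ms33 (chromosome 2, 238013082 to 238015359, plus strand) had the largest genotype differences of the listed genes at S5-6 and S7. Transgenic anthers had more of its RNA than the control at S3-4, and at least 10-fold less at the later stages. The genotype difference thus had opposite signs at S3-4 and later. Control anthers had little of this RNA at S3-4, most at S5-6 and somewhat less at S7.

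At S3-4, ms33 had 74, 95 and 107 counts in the ZmCCT(+) libraries, against 9, 17 and 15 in ZmCCT(-). The mean was 5.89 ± 0.864 CPM (SD, n = 3) in ZmCCT(+) and 0.779 ± 0.241 CPM (SD, n = 3) in ZmCCT(-). All ZmCCT(+) libraries lay above all ZmCCT(-) libraries. The fold change was 7.52 (log2 2.91 ± 0.21 SE, edgeR adjusted p = 5.57e-23). A larger log2 fold change was seen in 4.83% of tested genes, so a rise of this size was not rare at S3-4.

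At S5-6, ms33 had 66, 83 and 68 counts in ZmCCT(+), against 792, 705 and 591 in ZmCCT(-). These are 3.43 ± 0.332 CPM in ZmCCT(+) and 35.6 ± 1.10 CPM in ZmCCT(-) (SD, n = 3 each). The groups did not overlap: the highest ZmCCT(+) library reached 3.81 CPM and the lowest ZmCCT(-) library 34.6 CPM. Expression was 10.4-fold lower in ZmCCT(+) (log2 -3.38 ± 0.10 SE, edgeR adjusted p = 9.42e-46), and 215 of 24694 tested genes, 0.871%, had a lower log2 fold change.

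At S7, ms33 had 1.72, 1.43 and 0.932 CPM in ZmCCT(+), from 73 summed counts, against 21.6, 23.3 and 21.3 CPM in ZmCCT(-), from 1233. The means were 1.36 ± 0.397 CPM in ZmCCT(+) and 22.1 ± 1.06 CPM in ZmCCT(-) (SD, n = 3 each). Again no library of one genotype reached the range of the other. The gene was 16.3-fold lower in ZmCCT(+) (log2 -4.03 ± 0.14 SE, edgeR adjusted p = 3.36e-42), with 172 tested genes, 0.697%, lower. Fitted on the libraries of 1 stage alone, and so without those of S3-4, the log2 fold changes were -3.37 at S5-6 and -3.99 at S7 (edgeR adjusted p = 3.53e-43 and 1.29e-38). A rise of 2-fold or more at S3-4 together with a fall of 2-fold or more at both later stages was called in 98 genes, 0.397% of those tested, and ms33 was the only listed gene among them. In TPM the means were 3.62 ± 0.417, 2.58 ± 0.241 and 1.02 ± 0.308 in ZmCCT(+) at S3-4, S5-6 and S7, against 0.524 ± 0.157, 26.1 ± 0.925 and 15.2 ± 0.677 in ZmCCT(-) (SD, n = 3 each).

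The change from S3-4 to S5-6 went in opposite directions in the genotypes. In ZmCCT(+), ms33 was lower at each next stage, by 1.73-fold at S5-6 (log2 -0.79 ± 0.14 SE, edgeR adjusted p = 5.36e-07) and by a further 2.52-fold at S7 (log2 -1.33 ± 0.19 SE, edgeR adjusted p = 3.84e-09). The size of the first fall depended on the processing, with log2 -0.80 to -0.46 in the alternatives on counts and as little as -0.36 on TPM. In ZmCCT(-), ms33 was 45.3-fold higher at S5-6 than at S3-4 (log2 5.50 ± 0.14 SE, edgeR adjusted p = 6.97e-51), and 93 tested genes had a larger log2 change. It was then 1.61-fold lower at S7 than at S5-6 (log2 -0.69 ± 0.08 SE, edgeR adjusted p = 7.32e-12), a call that an assumed spread of 20% ended (adjusted p = 0.120). The change of the genotype effect between S3-4 and S5-6 was log2 -6.29 ± 0.22 SE (edgeR adjusted p = 4.74e-42). Between S5-6 and S7 it was -0.65 ± 0.21 SE (edgeR adjusted p = 0.00645), and that call was lost without S7 ZmCCT(+) replicate 3 (log2 -0.43, adjusted p = 0.102), with a 20% spread (0.276) and on TPM (0.633 and 0.120). Ordered by CPM, ms33 was highest in S5-6 ZmCCT(-), followed by S7 ZmCCT(-), S3-4 ZmCCT(+), S5-6 ZmCCT(+), S7 ZmCCT(+) and S3-4 ZmCCT(-). Each neighbouring pair in this order differed by the test, the last with the highest edgeR adjusted p, 0.0121, and the first with the smallest log2 difference, 0.69. For these pairs in turn, 42.4%, 84.5%, 85.9%, 63.6% and 59.6% of all tested genes were called.

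**Figure D2:**
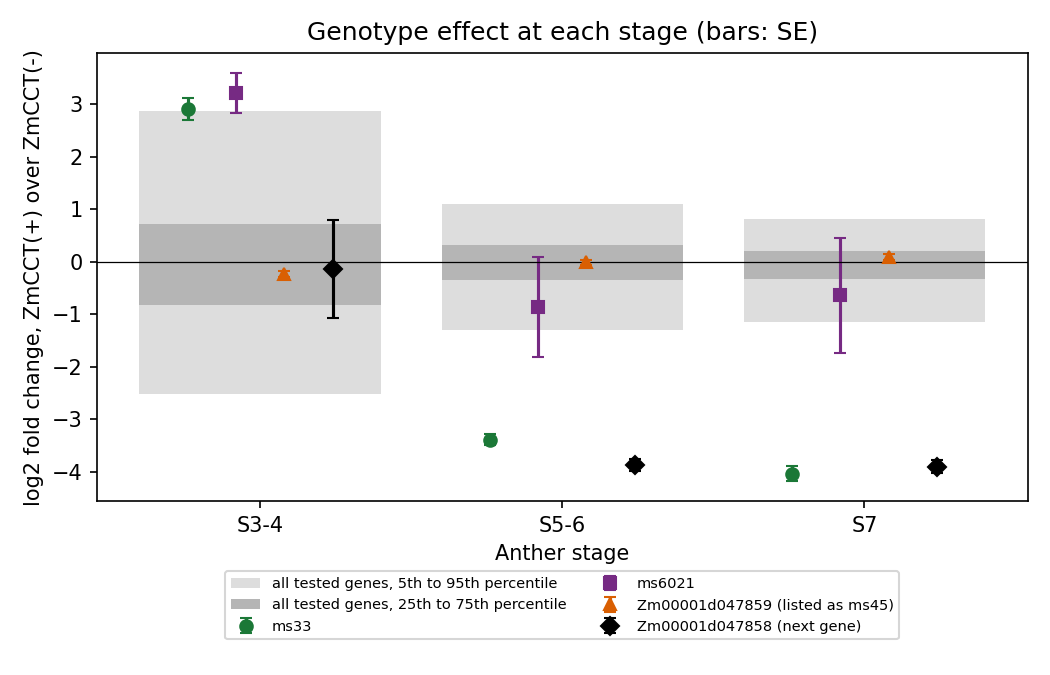
Log2 fold change of ZmCCT(+) over ZmCCT(-) at each stage for the tested genes (symbols, bars are SE), over the 5th to 95th (light) and 25th to 75th (dark) percentiles of all 24694 tested genes. ms33 lies at 2.91, above the light band, at S3-4 and at -3.38 and -4.03, far below it, at S5-6 and S7.

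None of the tested neighbours of ms33 fell as far at S5-6 or S7. Among the 5 nearest tested genes on each side, a stretch of 1215 kb, 2 were higher and 3 lower in ZmCCT(+) by 2-fold or more at S3-4. At S5-6, 0 were higher and 2 lower by as much, and at S7 the numbers were 1 and 0. The 2 higher genes at S3-4 were also the 2 lower ones at S5-6. Zm00001d007709 had log2 fold changes of 2.31, -1.11 and 0.45 at S3-4, S5-6 and S7. Zm00001d007718 had 7.71, -1.11 and 2.39, the first above that of ms33, 2.91. The lowest log2 fold change among these 10 genes was -1.11 at S5-6 and -0.97 at S7, against -3.38 and -4.03 for ms33 itself. Their median log2 fold changes were 0.18, 0.08 and 0.24 at S3-4, S5-6 and S7, beside -0.01, -0.02 and -0.04 over all tested genes.

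**Figure D3:**
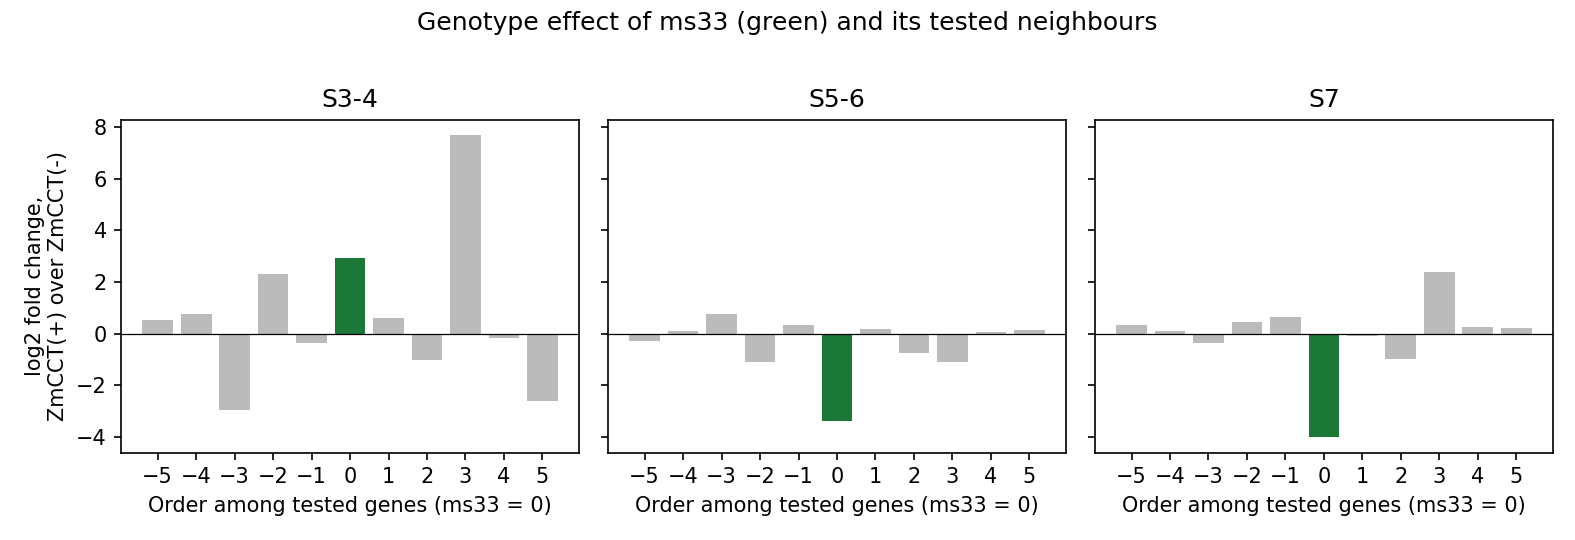
Log2 fold change of ZmCCT(+) over ZmCCT(-) for ms33 (green) and for the 5 nearest tested genes on each side (grey), in gene order, at the 3 stages. No neighbour falls below -1.11 at S5-6 or -0.97 at S7, where ms33 lies at -3.38 and -4.03. At S3-4 the highest neighbour, Zm00001d007718, lies at 7.71 and ms33 at 2.91.

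The gene whose profile was most like that of ms33 was Zm00001d044652 (chromosome 3, 234079953 to 234081946), with Pearson's r of 0.985 in log2 CPM over 18 libraries, among 22092 genes with a mean of at least 1 CPM. It had 0.993 ± 0.242, 0.533 ± 0.169 and 0.101 ± 0.135 CPM in ZmCCT(+) at S3-4, S5-6 and S7. In ZmCCT(-) it had 0.0194 ± 0.0336, 12.0 ± 0.861 and 7.75 ± 1.43 CPM at these stages (SD, n = 3 each). It was picked for its likeness in these same libraries, so the shared pattern is no separate result. Its means in S3-4 ZmCCT(-) and S7 ZmCCT(+) lie below 0.118 CPM, the lowest level that 3 counts correspond to in any library. In all, 25 genes reached an r of 0.9 with ms33.

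The fatty acyl reductase gene ms6021 (chromosome 9, 154667073 to 154670341, minus strand) had its highest level in transgenic anthers at S3-4. It was low in the other groups. At S3-4 it had 65, 58 and 52 counts in ZmCCT(+), against 10, 9 and 2 in ZmCCT(-). The means were 3.77 ± 0.589 CPM in ZmCCT(+) and 0.407 ± 0.260 CPM in ZmCCT(-) (SD, n = 3 each), with no overlap between the groups. Expression was 9.25-fold higher in ZmCCT(+) (log2 3.21 ± 0.38 SE), and without the filter the log2 fold change was 3.19 ± 0.38 SE (edgeR adjusted p = 1.43e-16). It ran from 3.03 to 3.41 over the other settings on counts. On TPM it was 1.34 with a pseudocount of 1 and 2.72 with a pseudocount of 0.1, which makes differences at low levels smaller. The fold of summed counts was 9.39, with an exact 95% counting interval of 5.95 to 15.5. Among the genes that passed the filter, 4.08% had a larger log2 fold change, but ms6021 passed it only through this high group.

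At the later stages ms6021 had at most 4 counts in any library. There were 2, 2 and 0 counts in ZmCCT(+) at S5-6, against 2, 4 and 1 in ZmCCT(-). At S7 there were 0, 3 and 0 in ZmCCT(+), against 2, 3 and 0 in ZmCCT(-). The genotypes overlapped at both stages, and a difference was not detectable at this depth (edgeR adjusted p = 0.445 and 0.647). The ratios of summed counts were 0.526 at S5-6, with a counting interval of 0.113 to 2.07, and 0.617 at S7, with an interval of 0.0957 to 3.17. In TPM, ms6021 reached 2.22 ± 0.372 in S3-4 ZmCCT(+) and 0.275 ± 0.154 in S3-4 ZmCCT(-) (SD, n = 3 each).

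Between S3-4 and S5-6, ms6021 fell in transgenic anthers by 5.75 on the log2 scale without the filter (± 0.50 SE, edgeR adjusted p = 5.39e-30), with 4 summed counts at S5-6 beside 175 at S3-4. In the control it fell by 1.69 (± 0.68 SE, edgeR adjusted p = 0.0276), with 7 summed counts at S5-6 beside 21 at S3-4. The control call did not hold without S3-4 ZmCCT(-) replicate 1 or 2 (adjusted p = 0.154 and 0.114), without S5-6 ZmCCT(-) replicate 1 or 3 (0.103 and 0.0911), by limma-voom (0.0838) or on TPM (limma-trend, 0.101 and 0.0913). Without the filter, the genotype effect changed by log2 -4.06 ± 1.06 SE between these stages (edgeR adjusted p = 0.000316), and by -3.82 ± 1.22 SE from S3-4 to S7 (edgeR adjusted p = 0.00376). With the filter, the change to S7 was not called without S7 ZmCCT(-) replicate 2 (edgeR adjusted p = 0.0927). In the order of levels, S3-4 ZmCCT(+) exceeded S3-4 ZmCCT(-), which exceeded S5-6 ZmCCT(-), while no further neighbours passed the test. With the filter, 81.3% of tested genes were called for the first of these pairs and 56.3% for the second.

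The profile of ms6021 was most like that of Zm00001d017019 (chromosome 5, 182804219 to 182805136), with r of 0.965 over 18 libraries. That gene had 8.22 ± 1.71 CPM in ZmCCT(+) and 2.14 ± 0.945 CPM in ZmCCT(-) at S3-4 (SD, n = 3 each), and means between 0.878 and 0.992 CPM in the remaining 4 groups. Such a profile was common. An r of at least 0.9 with ms6021 was reached by 627 genes, and 1120 tested genes, 4.54%, were at least 2-fold higher in ZmCCT(+) at S3-4 and not called at S5-6 or S7.

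Zm00001d047859 (chromosome 9, 143633531 to 143636108, plus strand), the gene listed as ms45, was expressed in all 18 libraries, from 33.3 to 42.0 CPM, a 1.26-fold range, and from 27.9 to 43.8 TPM. At S3-4 its CPM was 33.8, 36.4 and 33.3 in ZmCCT(+), against 42.0, 38.9 and 40.9 in ZmCCT(-). The ZmCCT(+) libraries were the lower ones without overlap, by 1.18-fold (log2 -0.24 ± 0.06 SE, edgeR adjusted p = 1.12e-04), and the log2 fold change was -0.42 when libraries were scaled by total counts. At S5-6 it had 38.3, 41.3 and 38.9 CPM in ZmCCT(+), against 39.6, 39.9 and 40.5 CPM in ZmCCT(-). These overlap, and the log2 fold change of -0.01 ± 0.05 SE did not pass (edgeR adjusted p = 0.846) and turned to 0.036 with total counts as the scaling. At S7 it had 38.3, 38.1 and 41.6 CPM in ZmCCT(+), against 36.3, 37.7 and 36.9 CPM in ZmCCT(-). The S7 ranges were apart, but the log2 difference of 0.09 ± 0.05 SE did not pass either (edgeR adjusted p = 0.171), whereas it did on TPM (limma-trend, log2 0.24, adjusted p = 0.00130) and with only the S7 libraries (edgeR, log2 0.12, adjusted p = 0.0450).

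The genotype effect on Zm00001d047859 differed between S3-4 and the later stages, by log2 0.22 ± 0.08 SE at S5-6 (edgeR adjusted p = 0.00684) and 0.32 ± 0.08 SE at S7 (edgeR adjusted p = 0.000163). These differences are small beside those of ms33. All calls of this gene were lost when a spread of 20% between replicates was assumed (adjusted p = 0.410 at S3-4), and the spread estimated from these libraries was 3.20%. In CPM the lowest group was S3-4 ZmCCT(+) at 34.5 ± 1.71 and the highest S3-4 ZmCCT(-) at 40.6 ± 1.57 (SD, n = 3 each). The others, from low to high, were S7 ZmCCT(-), S7 ZmCCT(+), S5-6 ZmCCT(+) and S5-6 ZmCCT(-), and no 2 neighbours in that order differed by the test. The most similar profile, at r of 0.889 over 18 libraries, was that of Zm00001d032600 (chromosome 1, 231640138 to 231644331), with 27.1 ± 0.232 CPM in ZmCCT(+) and 36.9 ± 2.09 CPM in ZmCCT(-) at S3-4 (SD, n = 3 each).

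The neighbour Zm00001d047858 (chromosome 9, 143631572 to 143633228, plus strand) behaved otherwise. At S3-4 it had 0, 1 and 3 counts in ZmCCT(+), against 0, 3 and 2 in ZmCCT(-). At S5-6 it had 54, 48 and 60 counts in ZmCCT(+), against 910, 704 and 585 in ZmCCT(-). At S7 it had 33, 45 and 39 counts in ZmCCT(+), against 505, 701 and 589 in ZmCCT(-). The gene was thus almost silent in both genotypes at S3-4 and abundant later in the control, with no overlap between genotypes at S5-6 or S7. It was 14.6-fold lower in ZmCCT(+) at S5-6 (log2 -3.87 ± 0.11 SE, edgeR adjusted p = 5.24e-47) and 14.9-fold lower at S7 (log2 -3.89 ± 0.12 SE, edgeR adjusted p = 3.43e-44).

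In transgenic anthers, Zm00001d047858 rose between the earlier stages, with 162 counts at S5-6 beside 4 at S3-4 (log2 4.79 ± 0.42 SE, edgeR adjusted p = 4.37e-18). In control anthers it had 2199 counts at S5-6 beside 5 at S3-4, a ratio of 394 with an exact 95% counting interval of 169 to 1214 (log2 8.52 ± 0.21 SE, edgeR adjusted p = 3.23e-52). Like ms33, it was more than 10-fold lower in ZmCCT(+) at both later stages. Unlike ms33, it was not detectably different at S3-4 (log2 -0.14 ± 0.93 SE, edgeR adjusted p = 0.895). Its r with ms33 was 0.767 and with Zm00001d047859 0.161, each over 18 libraries. Of the 10 nearest tested genes around Zm00001d047859, it was the only 1 that was lower by 2-fold or more in ZmCCT(+) at S5-6 or S7. It was added with these values known, so its tests and its likeness to ms33 are description only.

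**Figure D4:**
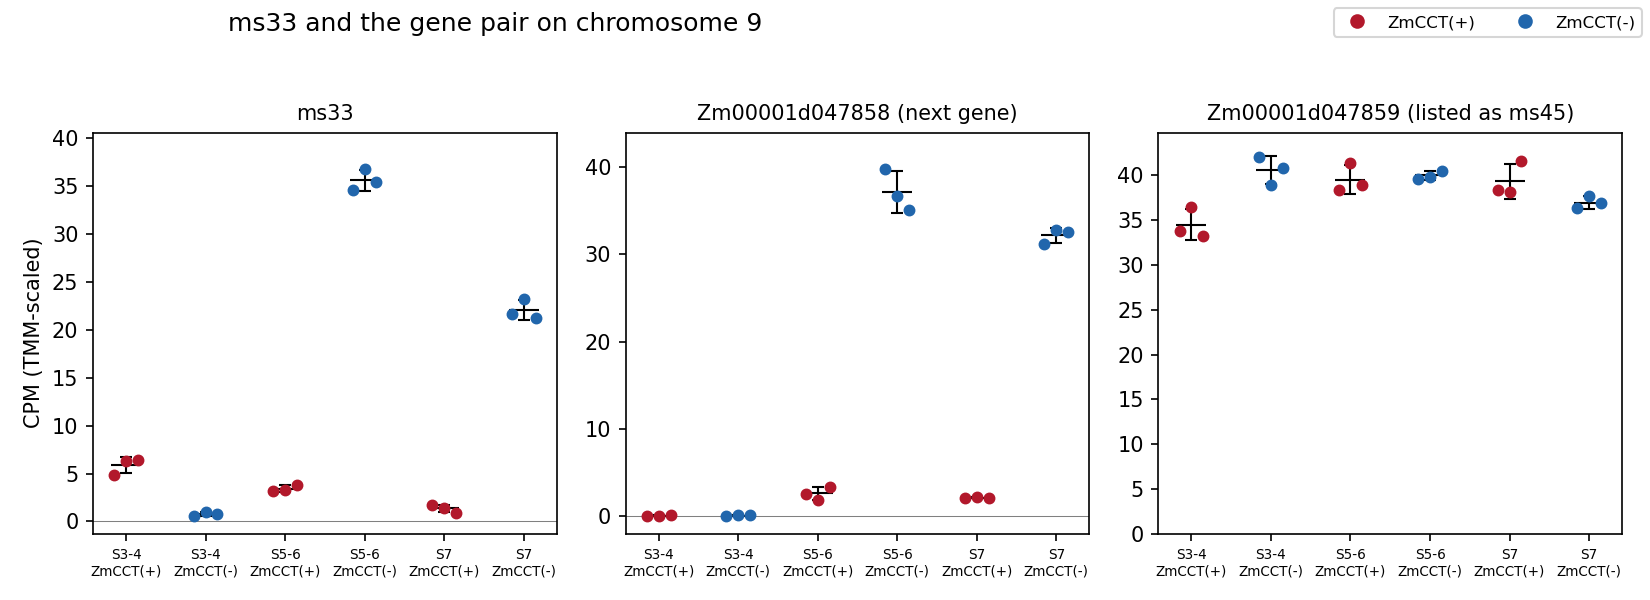
CPM of ms33 and of the neighbouring genes Zm00001d047858 and Zm00001d047859 in each library (points), with the mean and SD of 3 libraries (black). In the first 2 panels the S5-6 and S7 means lie at or below 3.43 CPM in ZmCCT(+) and at or above 22.1 CPM in ZmCCT(-), while Zm00001d047859 keeps similar levels in all groups.

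The cytochrome P450 gene ms26 (chromosome 1, 14702216 to 14704540, minus strand) was detected at a handful of counts. At S3-4 it had 0, 0 and 1 counts in ZmCCT(+), against 3, 2 and 0 in ZmCCT(-). At S5-6 it had 12, 9 and 5 counts in ZmCCT(+), against 7, 5 and 1 in ZmCCT(-). At S7 it had 2, 3 and 3 counts in ZmCCT(+), against 5, 5 and 6 in ZmCCT(-). The 2 highest libraries, by count and by CPM, were of S5-6 ZmCCT(+), whose range overlapped that of S5-6 ZmCCT(-), and the S7 libraries of ZmCCT(+) lay below those of ZmCCT(-). Without the filter on low counts, its genotype difference did not pass at S3-4, S5-6 or S7 (edgeR adjusted p = 0.255, 0.303 and 0.382), in a setting that called 59.6%, 44.8% and 38.2% of 35122 genes. The step from S3-4 to S5-6 in ZmCCT(+) did pass in that setting, as did 63.8% of those genes (log2 3.89 ± 1.05 SE, edgeR adjusted p = 0.000406). It rests on 26 counts at S5-6 and 1 at S3-4, a ratio of 19.0 with an exact 95% counting interval of 3.13 to 780.

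The oxidoreductase gene ms20/ipe1 (chromosome 1, 82567028 to 82569436, plus strand) was spread unevenly over replicates. At S3-4 its counts were 0, 1 and 6 in ZmCCT(+), against 0, 4 and 0 in ZmCCT(-). At S5-6 they were 8, 2 and 4 in ZmCCT(+), against 3, 1 and 0 in ZmCCT(-), and at S7 they were 0, 2 and 5 in ZmCCT(+), against 1, 1 and 4 in ZmCCT(-). The genotypes overlapped at every stage. The ratio of summed counts at S5-6, 14 over 4, was 3.22 with a counting interval of 1.01 to 13.4, but the unfiltered edgeR test did not pass (adjusted p = 0.166).

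The lipase gene ms30 (chromosome 4, 189183505 to 189185481, minus strand) had the fewest counts. At S3-4 it had 1, 2 and 0 counts in ZmCCT(+), against 1, 1 and 0 in ZmCCT(-). At S5-6 it had 2, 3 and 3 counts in ZmCCT(+), against 1, 0 and 0 in ZmCCT(-), and at S7 it had 3, 5 and 3 counts in ZmCCT(+), against 2, 0 and 1 in ZmCCT(-). Each ZmCCT(+) library lay above each ZmCCT(-) library at S5-6 and S7. The ratios of summed counts were 7.36 (counting interval 0.987 to 327) at S5-6 and 3.77 (0.995 to 21.0) at S7, and neither difference passed the unfiltered edgeR test (adjusted p = 0.127 and 0.202). A library's floor of 3 counts corresponds to 0.118 to 0.20 CPM, so differences in these 3 genes were not detectable below a few counts. Counting intervals and floors cover counting error only.

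The calls of the 3 tested genes stand against a background in which a large share of all genes was called. At S3-4 all 3 were called, 2 higher and 1 lower in ZmCCT(+), where 40.4% of tested genes were called higher and 40.9% lower. At S5-6 and at S7 1 of 3, ms33, was called, in both cases lower, beside 33.4% and 30.4% of tested genes. The median log2 fold change of the 3 was 2.91, -0.86 and -0.64 at S3-4, S5-6 and S7, beside -0.01, -0.02 and -0.04 over all tested genes. The S5-6 and S7 medians are the values of ms6021, which rest on at most 4 counts a library and ran from -1.25 to -0.25 and from -3.82 to -0.07 with 1 library left out. The S3-4 median is the value of ms33, with ms6021 above it at 3.21 and Zm00001d047859 below it at -0.24, so it shows no shared rise. The count and the median at S3-4 include ms6021, which entered the test only through its high group. The same holds for the counts of falls from S3-4 in ZmCCT(+) below. From S3-4 to S5-6 in ZmCCT(+), 1 of 3 rose, Zm00001d047859 (log2 0.20 ± 0.06 SE, edgeR adjusted p = 0.000686; log2 0.54 with total counts), and 2 fell, where 42.1% of tested genes rose and 43.8% fell. From S5-6 to S7 in ZmCCT(+), 1 fell, beside 32.3% of tested genes. In ZmCCT(-), 1 rose and 1 fell in the earlier step (27.9% and 28.4% of tested genes), and 1 fell in the later one (19.9%). Over the whole span from S3-4 to S7, 1 rose and 2 fell in ZmCCT(+), ms33 and ms6021 being the lower ones (39.4% and 42.6%). Over the same span in ZmCCT(-), 1 rose, ms33 by 28.1-fold, and 2 fell (32.9% and 31.8%). Neither of these falls held in every setting. That of Zm00001d047859 (log2 -0.13) did not pass when libraries were scaled by total counts or with a stricter filter (edgeR adjusted p = 0.726 and 0.0851). It was also lost without S3-4 ZmCCT(-) replicate 1 or 3 (0.108 and 0.0544) and without S7 ZmCCT(-) replicate 1 or 3 (0.0695 and 0.0524). That of ms6021 (log2 -2.08) did not pass without S3-4 ZmCCT(-) replicate 1 (0.0707) or S7 ZmCCT(-) replicate 3 (0.0688).

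The test of genotype by stage over all stages called 3 of 3 tested members, and 86.6% of tested genes. From S3-4 to S5-6 the genotype effect became higher for 1 and lower for 2 of them, as it did for 37.6% and 39.3% of tested genes. From S5-6 to S7 it became lower for 1, ms33 (30.2% of tested genes). From S3-4 to S7 it became higher for 1 and lower for 2 (35.2% and 38.8%). The lower counts from S3-4, and the count over all stages, include ms6021, which entered the test only through S3-4 ZmCCT(+). Without the filter, ms6021 was called in these comparisons too (edgeR adjusted p = 3.23e-05 over all stages, 0.000316 to S5-6 and 0.00376 to S7).

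Summed over the 6 listed genes, TPM was 35.1 ± 2.15, 45.0 ± 0.766 and 42.6 ± 2.22 in ZmCCT(+) at S3-4, S5-6 and S7, against 39.8 ± 1.75, 66.6 ± 3.28 and 50.1 ± 0.712 in ZmCCT(-) (SD, n = 3 each). Zm00001d047859 made up most of this sum in every group, so the sum depends on its unsettled identity as ms45. Zm00001d047858, which is not in the sum, had 0.0515, 3.07 and 2.50 TPM in ZmCCT(+) over these stages. In ZmCCT(-) it had 0.0311, 42.9 and 34.7 TPM (means, n = 3 each). The share of Zm00001d047859 was 83%, 92.6% and 96.2% in ZmCCT(+) and 97.5%, 60.3% and 68.9% in ZmCCT(-) over these stages. The share of ms33 was 10.3%, 5.75% and 2.42% in ZmCCT(+) and 1.33%, 39.2% and 30.3% in ZmCCT(-). At S3-4 in ZmCCT(+), ms6021 held 6.33% of the sum.

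**Figure D5:**
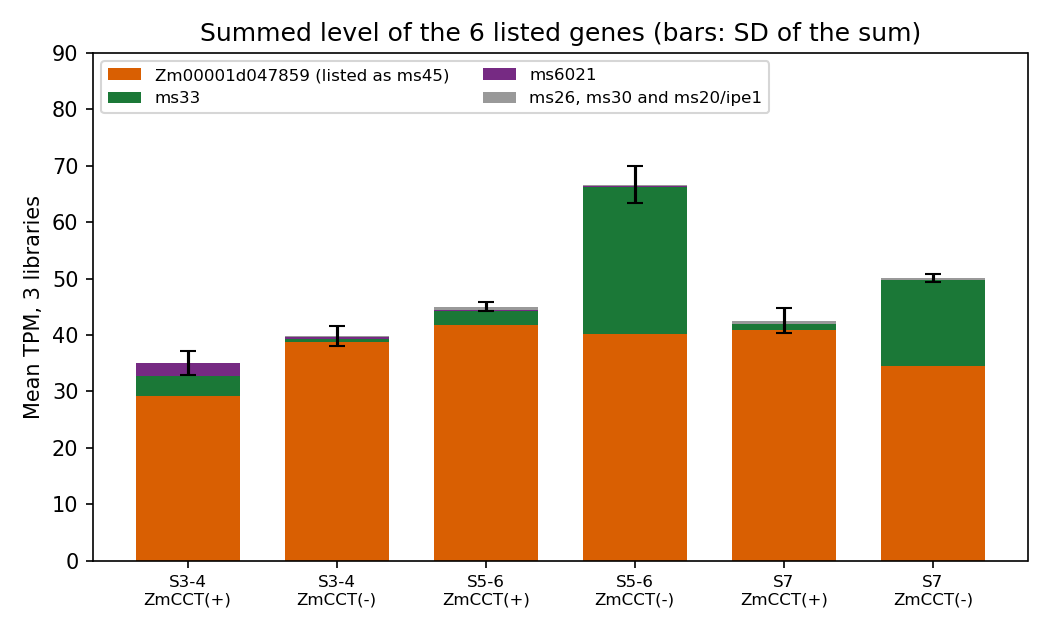
Mean TPM of the 6 listed genes stacked by stage and genotype (3 libraries a group), with the SD of the sum. The sum is highest in S5-6 ZmCCT(-), at 66.6, where ms33 makes up 39.2% of it. Zm00001d047859, whose identity as ms45 is not settled, makes up most of each bar.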

How the data were processed

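Total RNA of maize anthers was extracted with TRIzol and sequenced as paired reads, per the labels. The authors deposited raw counts per gene, 1 table per stage, which they did not normalise, and 18 tables, 1 per library, that give TPM and a coverage signal, per the file headers. Bowtie2, StringTie and DESeq2 are named in the submitters' processing notes. The sources used here do not give their versions, the genome build of the coordinates, the use of strand or the handling of reads that fit several genes. Count columns were checked against the coverage of each library: 18 of 18 matched their own library best (r from 0.979 to 0.996, 19610 genes), and 0 value columns were left unmapped.

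The quasi-likelihood F test of edgeR 4.0.16 (R 4.3.3, robust) was run on the counts in 1 fit of 6 groups, with TMM scaling and filterByExpr (minimum count 10, minimum total 15), which left out 20884 genes. P-values were Benjamini-Hochberg adjusted over all 24694 tested genes, for 13 comparisons, and calls are at 0.05. SE was taken as the size of the log2 fold change divided by the root of F. The tests were checked on simulated data in which few genes changed, none of them at a low count. That check covers neither changes at low counts nor scaling when many genes change. Exact counting intervals are 95% Clopper-Pearson, from scipy 1.17.1. Replicates of a group differed beyond counting noise (chi-square over degrees of freedom 1.57 to 3.03). Profile likeness used log2 CPM with a prior count of 2. Alternatives were DESeq2 1.42.0, limma 3.58.1 (voom, and trend on log2 TPM plus 1 or 0.1), other scalings and filters, a replicate block, only the libraries compared, a 2-fold minimum, an assumed spread of 20% (edgeR's likelihood ratio test) and leaving out each library.

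The members, lists and tests were chosen with earlier results of these data known. All 6 members were named, with the 1 gene most like each tested one. Of 33 pathway and 10 cell type marker names, 0 were paired with an identifier of the tables (0 of 43789 Zm00001d identifiers are in the RefSeq gene table), so no pathway or marker list is counted. Sequences were not used here.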

Additional observations from a re-analysis of the deposited data

Results flagged for a closer look

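In edgeR's quasi-likelihood test, the genotype effect differed between stages for each of the 3 tested genes, as it did for 86.6% of all tested genes, so the count is near the background. For ms33, which was higher in ZmCCT(+) at S3-4 and lower later in 3 of 3 libraries each, the adjusted p was 1.07e-43 over all stages, 4.74e-42 from S3-4 to S5-6, 0.00645 from S5-6 to S7 and 8.43e-42 from S3-4 to S7. For ms6021, which entered the test only through S3-4 ZmCCT(+), it was 0.000151 over all stages, 0.000718 from S3-4 to S5-6 and 0.00530 from S3-4 to S7, and without the filter 3.23e-05, 0.000316 and 0.00376. For Zm00001d047859, listed as ms45, it was 0.000452 over all stages, 0.00684 from S3-4 to S5-6 and 0.000163 from S3-4 to S7, with changes of at most 0.32 on the log2 scale.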

How the results depend on the processing

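The genotype differences of ms33 passed in 11 of 11 alternatives and in 6 of 6 leave-outs at each stage. In the alternatives on counts, log2 fold changes ran from 2.73 to 2.94 at S3-4, -3.39 to -3.34 at S5-6 and -4.05 to -3.99 at S7. The smallest changes, 1.60, -2.92 and -3.02, were on TPM, where the added pseudocount makes differences at low levels smaller. Scaling by total counts moved the median of all tested genes by -0.18 at S3-4 and by 0.34 from S3-4 to S5-6 in ZmCCT(+) (log2). Libraries with the same replicate number did not deviate together (r from -0.0355 to 0.0157 in 9 pairs, and 8 of 18 libraries correlated best with their own number). A replicate block changed no call or count of members, with log2 2.91 for ms33 at S3-4.

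Counts of listed genes called moved as follows, and the cause was not tested except where a gene left the test. With the stricter filter, which removes ms6021, there was 1 in place of 2 higher at S3-4, lower from S3-4 to S5-6 and to S7 in ZmCCT(+), and lower in the change of the genotype effect over both spans. There were 0 lower in ZmCCT(-) from S3-4 to S5-6 (1) and to S7 (2). Over the span to S7, Zm00001d047859 stayed in the test but was no longer called (log2 -0.10, edgeR adjusted p = 0.0851). With the 2-fold minimum or a 20% spread, all counts of calls of Zm00001d047859 became 0 in place of 1, as did the later step of ms33 in ZmCCT(-) and its change of effect from S5-6 to S7, and lower over the span in ZmCCT(-) became 1 in place of 2. With the 2-fold minimum alone, 1 in place of 2 was lower from S3-4 to S5-6 in ZmCCT(+). With no filter, 2 in place of 1 were higher there, ms26 being added. On TPM (either pseudocount) and with only the libraries compared, 1 in place of 0 was higher at S7, 0 in place of 1 was lower from S3-4 to S5-6 and 2 in place of 1 were lower from S5-6 to S7 in ZmCCT(-). With only the libraries compared, ms6021 did not enter the test of the earlier step. That last count was also 2 with DESeq2 size factors, and limma-voom likewise gave 0 lower in the step before it. On TPM, 0 in place of 1 was lower in the change of effect from S5-6 to S7, and with a pseudocount of 1, 1 in place of 0 was higher. Over the span in ZmCCT(-), total counts left 1 in place of 2 lower, ms6021. Using only the libraries compared also left 1, but this was Zm00001d047859. With Zm00001d047858 as ms45, an alternative added after seeing the data, 0 in place of 1 was lower at S3-4 and 2 in place of 1 were lower at S5-6, at S7 and from S5-6 to S7 in ZmCCT(-). Likewise 2 in place of 1 were higher from S3-4 to S5-6 and to S7 in ZmCCT(-), 1 in place of 2 was lower over that span, and in the change of effect from S3-4 to each later stage 0 in place of 1 were higher and 3 in place of 2 lower.

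Over leave-outs, the count lower in ZmCCT(-) ran from 0 to 1 from S3-4 to S5-6 and from 0 to 2 to S7. That of the change of effect ran from 0 to 1 from S5-6 to S7 and from 1 to 2 from S3-4 to S7. Signs turned only in uncalled values. For Zm00001d047859 at S5-6 (log2 -0.01) these were 0.0016 with DESeq2 size factors, 0.036 with total counts, 0.054 and 0.055 on TPM, 0.00096 by DESeq2, 0.0027 with only the libraries compared and -0.053 to 0.0077 over leave-outs. For its step from S3-4 to S5-6 in ZmCCT(-) (-0.02) they were 0.086 with total counts, 0.020 with the stricter filter, 0.048 and 0.049 on TPM and -0.049 to 0.0046 over leave-outs. From S5-6 to S7, leave-outs ran from -0.050 to 0.030 for Zm00001d047859 in ZmCCT(+). For ms6021 they ran from -3.35 to 0.38 in ZmCCT(+), from -0.95 to 0.22 in ZmCCT(-) and from -2.96 to 0.79 for the change of effect. The most similar gene was replaced in 5 of 6 checks. Without the S3-4 ZmCCT(+) libraries, the named genes had r of 0.802 with Zm00001d047859, 0.989 with ms33 and 0.844 with ms6021, below Zm00001d052666 (0.848), Zm00001d006000 (0.995) and Zm00001d041513 (0.858). By rho they had 0.952 with ms33 and 0.807 with ms6021, below Zm00001d027415 (0.963) and Zm00001d033271 (0.895). Of the values of single genes, 696 kept direction and call, 37 lost a call, 8 gained one and 25 turned sign. Depth limits ms26, ms20/ipe1 and ms30, with at most 12 counts a library.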
